A study of Homo sapiens with 14 samples.

Results

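The genes described here are 42 direct targets of the transcription factor p53, chosen by gene name from a count table of 62703 human genes. Each of the 42 names matched a single gene. Their RNA was measured in LNCaP, 22Rv1 and PC3, established human prostate cancer cell lines, after 3 days with SEL120-34A at 1.5 µM or with dimethylsulfoxide (DMSO), the solvent. SEL120-34A blocks CDK8 and CDK19, the kinases of the Mediator complex. Each arm had 3 libraries in LNCaP and in 22Rv1, and 1 in PC3. All libraries were made by BRB-seq, which tags and counts the 3′ ends of polyadenylated RNA. The cells were treated in culture with a single dose at a single time. Each line derives from 1 tumor. LNCaP carries wild-type p53 and PC3 lacks p53. The p53 state of 22Rv1 is not stated here. The methods of the study speak in general of biological replicates, with exceptions where noted, and do not say for these libraries that they came from separate cultures. The p-values measure the spread between libraries.

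In unstressed cells p53 is kept scarce by the ubiquitin ligase MDM2, which is itself a p53 target. DNA damage and other stresses free p53 from MDM2. The stabilized protein binds its response elements as a tetramer and switches on genes for cell cycle arrest, cell death, DNA repair, metabolism and its own shutdown. The p53 response element consists of a pair of half-sites of 10 bases each, with a conserved core of 4 bases in each of them. Many of these genes also respond to other transcription factors, so their RNA alone does not report p53 activity. CDK8 and CDK19 sit in the kinase module of Mediator, the complex that links transcription factors to RNA polymerase II, and Mediator is a known coactivator of p53.

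For the genes that rose with SEL120-34A in either line, matches to the p53 element near their starts are shown, since such elements are the sequences p53 is known to bind. The 6000 bases around each canonical transcription start, 3000 on each side, were searched on GRCh38 for a pair of half-sites 0 to 13 bases apart with at most 2 mismatches and none in a core. The start is counted as position 1. Capitals mark the core of each half-site.
CDKN1A, chr6:36676449-36676468, plus strand, from position -2265, 2 mismatches: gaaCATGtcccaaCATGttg
GADD45A, chr1:67686775-67686794, plus strand, from position 1575 in an intron, 1 mismatch: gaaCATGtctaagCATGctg
GDF15, chr19:18385308-18385327, plus strand, from position -850, 2 mismatches: catCTTGcccagaCTTGtct
PLK2, chr5:58462274-58462293, minus strand, from position -2207, no mismatch: aaaCATGcctggaCTTGccc
SFN, chr1:26864399-26864427, plus strand, from position 1251 in the exon, 1 mismatch: aagCATGtctgctgggtgtgacCATGttt
In CDKN1A, GADD45A, GDF15 and PLK2 the half-sites of the pair shown abut, and in SFN they lie 9 bases apart. No such pair was found in these windows for RPS27L, TP53I3 and TP53INP1, the other 3 genes that rose. An element was found for 24 of the 42 genes. Among the 31 target genes with enough counts to be tested the share was 61.3%, beside 27.9% of the windows of 7080 tested genes. A pair without any mismatch was found for 12.9% of those 31, among them DDB2 and ZMAT3, and for 0.763% of all tested genes. These are matches of letters, not measured binding. The 42 genes were chosen as known p53 targets, and whether an element goes with a response to SEL120-34A was not tested.

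Library totals ranged from 246063 to 909176 counts. Every 22Rv1 library with SEL120-34A was shallower than each of the 22Rv1 DMSO libraries. The share of counts from mitochondrial genes was 13.9% to 17.3% with DMSO and 16.5% to 23.3% with SEL120-34A in LNCaP, and 7.60% to 9.82% and 9.52% to 13.1% in 22Rv1. The ranges of the arms overlapped and lay higher with SEL120-34A. With these genes removed, the counts of target genes past the threshold stayed at 5 in LNCaP and 5 in 22Rv1.

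All 8 markers of a luminal list were tested and had counts in every library. Their summed level was 3720 to 4249 CPM (counts scaled to an equal library total) with DMSO and 2770 to 3083 with SEL120-34A in LNCaP, and 996 to 1135 and 1121 to 1202 in 22Rv1. In PC3 the sum was 1224 CPM with DMSO and 1464 with SEL120-34A, above the 22Rv1 libraries of the same arm. KLK3, the gene for prostate-specific antigen, was at 1247, 1369 and 1039 CPM with DMSO and at 238, 363 and 391 with SEL120-34A in LNCaP and at 13.7 to 31.8 with DMSO in 22Rv1. By edgeR's test, 3 of the 8 fell in LNCaP, beside 0.776% of all tested genes. The log2 fold change of KLK3 was -1.82 ± 0.15 (SE; adjusted p = 1.35e-11), that of the kallikrein gene KLK2 was -1.37 ± 0.15 (SE; adjusted p = 2.85e-08) and that of the keratin gene KRT18 was -0.46 ± 0.13 (SE; adjusted p = 0.0374). FOLH1, the gene for prostate-specific membrane antigen, rose there by 0.47 ± 0.12 (SE; adjusted p = 0.0255). TMPRSS2, a serine protease gene, rose in 22Rv1 by 1.89 ± 0.52 (SE; adjusted p = 0.0246), on 2 to 10 counts per library. DESeq2 and limma-trend each called 2 lower and 0 higher in LNCaP, and 1 and 0 higher in 22Rv1. The part of the markers that moved in the results for the target genes was not tested. Of 6 mesenchymal markers of PC3, VIM had 1159 counts in the PC3 DMSO library, against 6 to 34 in the LNCaP DMSO libraries.

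Of the 42 target genes, 31 passed the low-count filter of edgeR and were tested among 7086 genes. The remaining 11 had 0 to 18 counts in any library and were not tested. They are the death receptor genes FAS, TNFRSF10A and EDA2R, the phosphatase gene PPM1D, the polymerase gene POLH, the metabolic regulator TIGAR, and CD82, SPATA18, FBXW7, ANKRA2 and DCP1B. EDA2R had 7, 6 and 10 counts in LNCaP with DMSO and 7, 3 and 13 with SEL120-34A, and at most 2 in any 22Rv1 library. Levels below are CPM scaled by TMM. Changes are log2 fold changes of SEL120-34A over DMSO, on which 1 stands for a doubling, with p-values from edgeR adjusted over all 7086 genes.

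In LNCaP, 5 of the 31 tested target genes were higher with SEL120-34A and none was lower. They were CDKN1A, GADD45A and GDF15, which act in growth arrest and stress signaling, TP53INP1, a gene for a cell death and autophagy protein, and TP53I3, a gene for an oxidoreductase. Of all 7086 tested genes, 2.77% were called, 1.99% as higher and 0.776% as lower. At an unadjusted p under 0.05 the number was 14 of 31, all higher, beside 7.86% of all genes that were higher and 5.63% that were lower. No target gene was lower by DESeq2 or limma-trend either, which called 3 and 0 of them as higher. With all libraries thinned to equal depth, GDF15 alone was called. Of the 31, 30 had a positive change, beside 50.1% of all genes, and their median change was 0.43, beside 0.00 for all genes. Without SFN, which had too few counts in LNCaP, 29 of 30 were positive with a median of 0.41. CMBL alone had a negative one, and it was not called. The 3 treated libraries of 11 genes all lay above the 3 DMSO libraries, beside 8.76% of all genes, and no target gene lay below, beside 10.7%. The SEL120-34A libraries held 23, 28 and 25 of the 31 above their DMSO mean, and the DMSO libraries themselves 13, 13 and 17. In these bulk libraries, a change in the number of cells of a kind and a change in RNA per cell cannot be told apart.

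In 22Rv1, 5 of the 31 were again higher and none was lower. GDF15, SFN, GADD45A and PLK2 belong to the arrest and growth genes, and RPS27L encodes a ribosomal protein variant. Of all genes, 5.7% were called, 4.15% as higher and 1.55% as lower. At an unadjusted p under 0.05 the number was 10, all higher, beside 11.1% of all genes that were higher and 7.99% that were lower, and DESeq2 and limma-trend called 4 and 3, none lower. DESeq2 gave no adjusted p for 14 of the 31. A positive change was seen in 21 of the 31, beside 50.3% of all genes, with a median of 0.29, beside 0.00. Without TP53I3 and ZMAT3, which had too few counts in an arm there, the median of the other 29 was 0.44. Groups did not overlap for 10 genes that lay above and 1 that lay below, XPC, beside 12.4% and 10.5% of all genes. The SEL120-34A libraries held 24, 23 and 18 of the 31 above their DMSO mean, and the DMSO libraries themselves 15, 14 and 17. When library totals alone were used for scaling, the median over all genes moved to -0.08 in LNCaP and -0.14 in 22Rv1, and 28 and 18 of the 31 target genes were then positive.

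**Figure D1:**
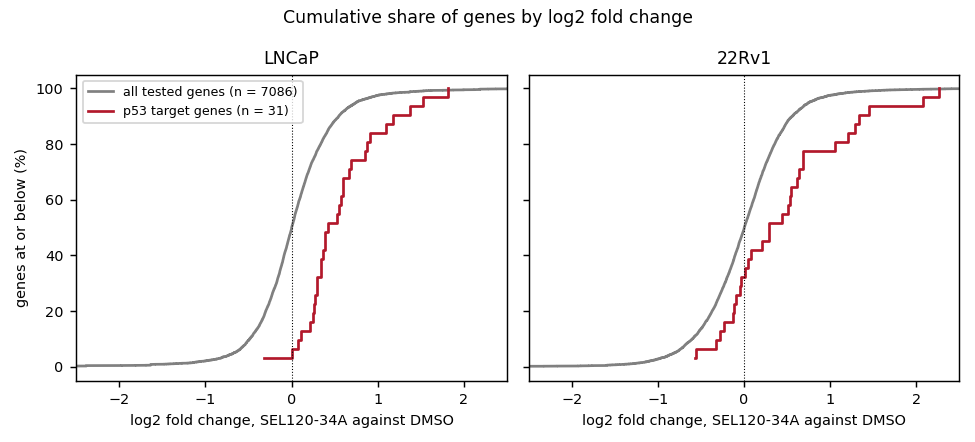
Cumulative share of genes (%, vertical axis) by log2 fold change of SEL120-34A over DMSO (horizontal axis) in LNCaP and 22Rv1, for all 7086 tested genes (grey) and the 31 tested p53 target genes (red). The red curve lies to the right of the grey one in LNCaP, with a median of 0.43, and less so in 22Rv1, with a median of 0.29. The fitted values of SFN in LNCaP and of TP53I3 and ZMAT3 in 22Rv1 rest on an arm with at most 3 counts in each library.

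**Figure D2:**
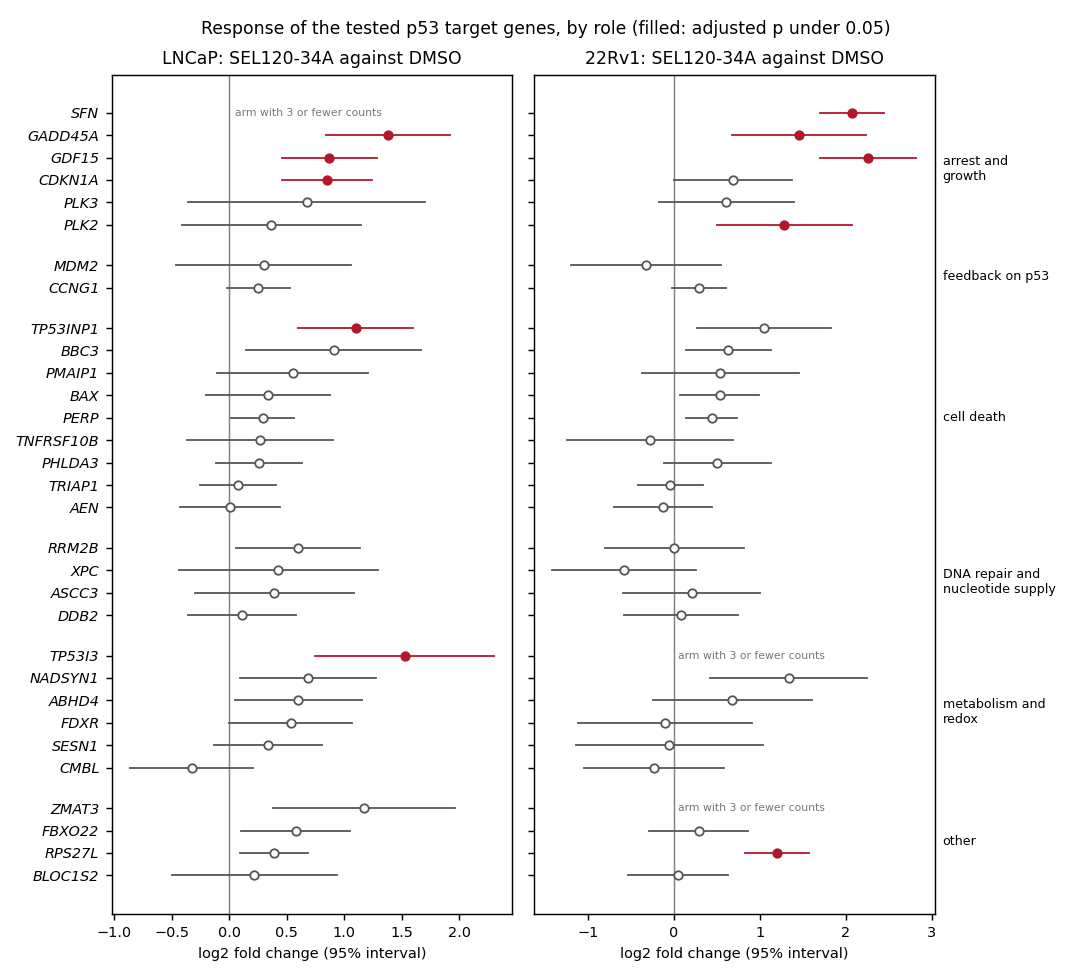
Log2 fold change with 95% interval (horizontal axis) of the 31 tested p53 target genes, grouped by role, in LNCaP (left) and 22Rv1 (right). Filled red points passed an adjusted p of 0.05, 5 in each line, and all of them lie to the right of 0. No point is drawn where an arm had at most 3 counts in each library.

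Of the 6 tested genes of arrest and growth, 5 had enough counts in LNCaP for a fold change. All 5 were positive there, as were all 6 in 22Rv1, beside 50.1% and 50.3% of all genes. By edgeR, 3 were higher in LNCaP and 4 in 22Rv1, beside 1.99% and 4.15% of all genes. The median change was 0.85 over the 5 and 1.37 over the 6. DESeq2 and limma-trend called 2 and 0 as higher in LNCaP and 3 and 2 in 22Rv1. DESeq2 gave no adjusted p for 2 of the 6 in 22Rv1. CDKN1A encodes p21, the inhibitor of cyclin-dependent kinases through which p53 halts the cell cycle. In LNCaP it was at 155, 113 and 88.1 CPM with DMSO and at 199, 249 and 184 with SEL120-34A. All treated libraries lay above all DMSO libraries, and the change was 0.85 ± 0.19 (SE; adjusted p = 0.00801). In 22Rv1 it was at 21.6, 31.8 and 26.2 CPM with DMSO and at 27.6, 55.8 and 48.5 with SEL120-34A. There the groups overlapped, and the change of 0.68 ± 0.34 did not pass (adjusted p = 0.265). In LNCaP CDKN1A no longer passed without DMSO replicate 3 or SEL120-34A replicate 2 (adjusted p = 0.139 in each case).

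GADD45A encodes a stress protein that takes part in growth arrest and DNA repair. LNCaP libraries had it at 43.7, 60.2 and 40.5 CPM with DMSO and at 109, 141 and 106 with SEL120-34A. The groups were fully apart, and the change was 1.38 ± 0.27 (SE; adjusted p = 0.00117). The 22Rv1 libraries held it at 25.5, 7.49 and 17.9 CPM with DMSO and at 66.1, 55.8 and 19.97 with SEL120-34A. The lowest treated library fell within the DMSO range, and the change was 1.45 ± 0.39 (SE; adjusted p = 0.0180). It stayed past the threshold in LNCaP with any library left out. In 22Rv1 it did not pass without DMSO replicate 2 (adjusted p = 0.0855) or 3 (0.0549), or SEL120-34A replicate 1 (0.260) or 2 (0.0933).

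GDF15 encodes a secreted cytokine of the TGF-β family that many stresses induce. In LNCaP it was at 476, 689 and 1232 CPM with DMSO and at 1439, 1409.5 and 1466 with SEL120-34A. The treated libraries lay close together above DMSO libraries that spread widely, and the change was 0.87 ± 0.20 (SE; adjusted p = 0.0103). It stood in 22Rv1 at 86.4, 95.5 and 76.3 CPM with DMSO and at 325, 678 and 259.6 with SEL120-34A. Every treated library was far above the controls, and the change was 2.26 ± 0.28 (SE; adjusted p = 2.51e-07). The 22Rv1 call held in all 23 alternatives, with adjusted p up to 0.0123. In LNCaP GDF15 did not pass without DMSO replicate 1 (adjusted p = 0.114) or 2 (0.0586) and with the DESeq2 Wald test (0.494).

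SFN encodes 14-3-3σ, a scaffold that holds mitotic kinases in the cytoplasm during a G2 arrest. 22Rv1 libraries had it at 84.4, 76.7 and 73.9 CPM with DMSO and at 311, 412 and 268 with SEL120-34A. The treated libraries were well above the controls, the change was 2.07 ± 0.18 (SE; adjusted p = 7.21e-11), and it held in all 22 alternatives that tested the gene. LNCaP had few SFN reads, with 1, 0 and 2 counts with DMSO and 1, 2 and 4 with SEL120-34A, or 1.41, 0 and 2.80 CPM and 3.90, 5.42 and 8.45 CPM, too few for a fold change. PLK2 and PLK3 encode polo-like kinases of the stress response. PLK2 in 22Rv1 was at 15.7, 24.3 and 10.7 CPM with DMSO and at 35.8, 51.5 and 34.2 with SEL120-34A. Its groups did not overlap and the change was 1.29 ± 0.39 (SE; adjusted p = 0.0407), from 8 to 13 counts per library. It had the largest adjusted p of the 22Rv1 calls and was lost in 10 of 20 alternatives, among them each one that left out a treated 22Rv1 library (adjusted p = 0.0905, 0.201 and 0.0537 without replicate 1, 2 and 3), 22Rv1 DMSO replicate 1 (0.0958) or 3 (0.229), or LNCaP DMSO replicate 1 (0.0506) or 3 (0.0515). LNCaP libraries had it at 22.5, 15.7 and 25.2 CPM with DMSO and at 19.5, 18.97 and 40.1 with SEL120-34A. The groups overlapped there, and the change was 0.37 (95% interval -0.41 to 1.14; adjusted p = 0.750). PLK3 was at 9.86, 5.24 and 12.6 CPM with DMSO and at 23.4, 16.3 and 10.6 with SEL120-34A in LNCaP. In 22Rv1 it was at 27.5, 22.5 and 15.5 CPM with DMSO and at 24.8, 42.9 and 31.4 with SEL120-34A, and it passed in neither line (adjusted p = 0.615 and 0.422).

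**Figure D3:**
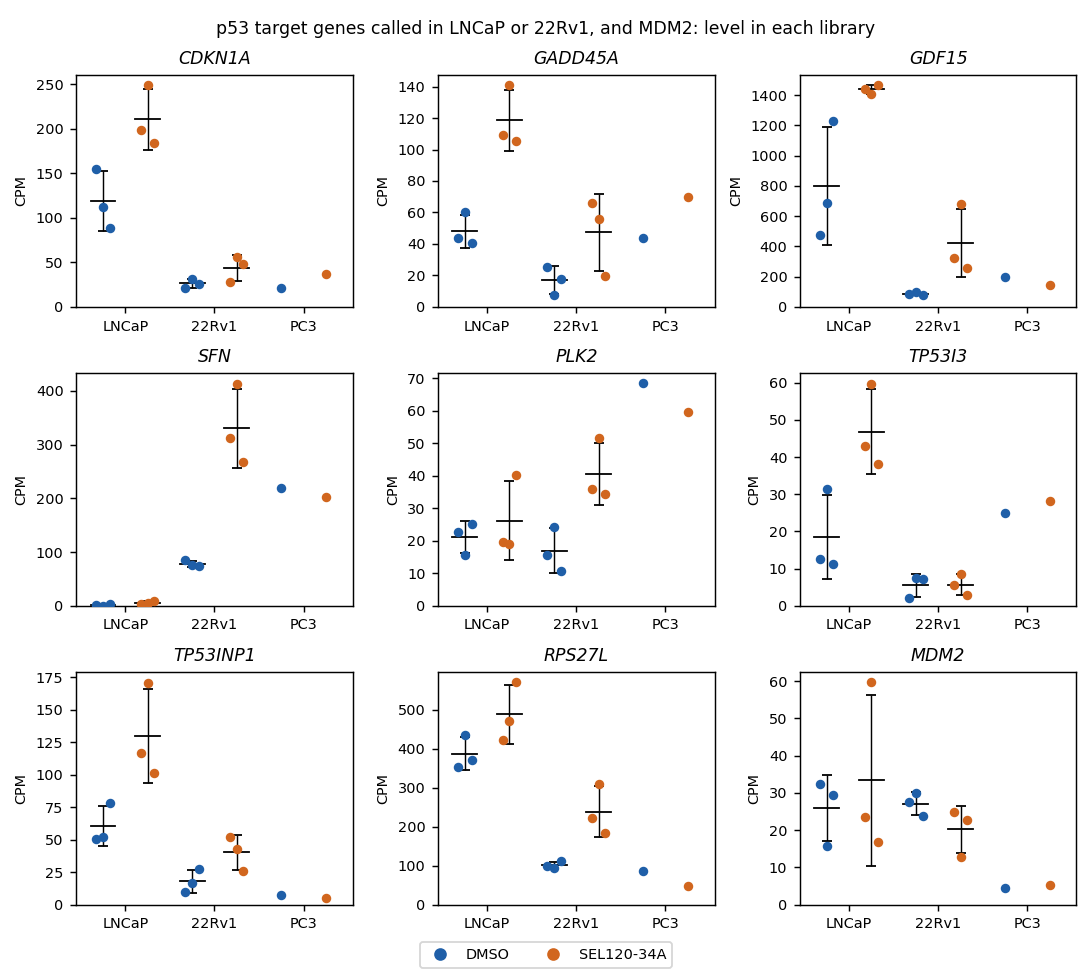
CPM in each library (vertical axis, from 0) of the 8 p53 target genes called in LNCaP or 22Rv1 and of MDM2, by cell line (horizontal axis), with DMSO in blue and SEL120-34A in orange. Horizontal bars are means and vertical bars ± 1 SD of 3 libraries, and PC3 has 1 library per arm. CDKN1A, GADD45A, TP53I3 and TP53INP1 separate in LNCaP, PLK2 and RPS27L in 22Rv1, GDF15 and SFN in both, SFN on 0 to 4 counts per library in LNCaP, and MDM2 in neither.

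The genes that feed back on p53 did not pass in either line. MDM2 is the ubiquitin ligase that degrades p53 and a common readout of p53 activity. In LNCaP it was at 32.4, 15.7 and 29.4 CPM with DMSO and at 23.4, 59.6 and 16.9 with SEL120-34A. SEL120-34A replicate 2 was the highest library and the other treated libraries lay within the DMSO range, so that the change of 0.30 (95% interval -0.46 to 1.06; adjusted p = 0.803) became -0.48 without it. The 22Rv1 libraries held it at 27.5, 29.9 and 23.9 CPM with DMSO and at 24.8, 12.9 and 22.8 with SEL120-34A, with overlapping groups and a change of -0.33 (95% interval -1.20 to 0.55; adjusted p = 0.746). With 3 to 23 counts per library in these lines, MDM2 was measured coarsely. CCNG1 encodes cyclin G1, which recruits a phosphatase to MDM2. It was at 355, 474 and 425 CPM with DMSO and at 452, 482 and 511 with SEL120-34A in LNCaP. It stood in 22Rv1 at 219.9, 172 and 212 CPM with DMSO and at 245, 253 and 239.6 with SEL120-34A, where the groups did not overlap. Its changes were close in size, 0.25 (95% interval -0.02 to 0.52; adjusted p = 0.410) in LNCaP and 0.29 (95% interval -0.02 to 0.61; adjusted p = 0.306) in 22Rv1. At an unadjusted p under 0.05 neither MDM2 nor CCNG1 passed, and neither did by DESeq2 or limma-trend. DESeq2 gave no adjusted p for 1 of these 2 genes in 22Rv1.

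Of the 9 tested cell death genes, 1 was higher in LNCaP and 0 in 22Rv1, beside 1.99% and 4.15% of all genes. In 22Rv1, 4 were higher at an unadjusted p under 0.05, beside 11.1%, and DESeq2 and limma-trend also called 0. DESeq2 gave no adjusted p for 2 of the 9 there. All 9 had a positive change in LNCaP and 6 in 22Rv1, beside 50.1% and 50.3% of all genes. TP53INP1, whose product promotes cell death and autophagy, was at 50.7, 52.4 and 78.3 CPM with DMSO and at 117, 171 and 101 with SEL120-34A in LNCaP. The groups were apart, with a change of 1.10 ± 0.25 (SE; adjusted p = 0.00707), lost without DMSO replicate 1 (adjusted p = 0.0529) or SEL120-34A replicate 2 (0.161). 22Rv1 libraries had it at 9.82, 16.8 and 27.4 CPM with DMSO and at 52.4, 42.9 and 25.7 with SEL120-34A. That change was of the same size, 1.05 ± 0.39, but the lowest treated library lay among the controls and it did not pass (adjusted p = 0.102).

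BBC3 and PMAIP1 encode PUMA and NOXA, the BH3-only proteins through which p53 triggers mitochondrial cell death, and BAX encodes the pore-forming protein they act on. BBC3 was at 14.1, 15.7 and 22.4 CPM with DMSO and at 23.4, 43.4 and 29.6 with SEL120-34A in LNCaP, with groups apart and a change of 0.91 (adjusted p = 0.243). In 22Rv1 it was at 80.5, 78.6 and 51.3 CPM with DMSO and at 121, 124 and 74.2 with SEL120-34A, with overlapping groups and a change of 0.63 (adjusted p = 0.124). PMAIP1 was at 22.5, 26.2 and 37.8 CPM with DMSO and at 31.2, 29.8 and 59.1 with SEL120-34A in LNCaP. The 22Rv1 libraries held it at 15.7, 11.2 and 14.3 CPM with DMSO and at 22.05, 17.2 and 19.97 with SEL120-34A, above all controls but on 4 to 12 counts per library (change 0.54, adjusted p = 0.571). BAX was at 43.7, 49.7 and 41.9 CPM with DMSO and at 50.7, 48.8 and 63.4 with SEL120-34A in LNCaP. It stood in 22Rv1 at 64.8, 71.1 and 67.98 CPM with DMSO and at 77.2, 142 and 85.6 with SEL120-34A, where the treated libraries lay above the controls without passing (change 0.53, adjusted p = 0.180). None of the 3 passed in either line.

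PERP, a gene for a membrane protein of desmosomes linked to p53-dependent death, was at 337, 401 and 405 CPM with DMSO and at 370.4, 442 and 534 with SEL120-34A in LNCaP. 22Rv1 libraries had it at 239.5, 247 and 272 CPM with DMSO and at 358, 305 and 354 with SEL120-34A, above all controls, with a change of 0.44 (95% interval 0.14 to 0.74; adjusted p = 0.0702). PHLDA3 encodes a pleckstrin homology protein that competes with AKT for the membrane. It was at 138, 204 and 122 CPM with DMSO and at 211, 168 and 156 with SEL120-34A in LNCaP. In 22Rv1 it was at 35.3, 28.1 and 31.01 CPM with DMSO and at 44.1, 38.6 and 48.5 with SEL120-34A, again above all controls but not past the threshold (change 0.51, adjusted p = 0.395). TNFRSF10B encodes the death receptor DR5. It was at 38.03, 49.7 and 47.5 CPM with DMSO and at 62.4, 65.1 and 35.9 with SEL120-34A in LNCaP. The 22Rv1 libraries held it at 33.4, 24.3 and 9.54 CPM with DMSO and at 24.8, 8.58 and 14.3 with SEL120-34A, and the groups overlapped in both lines. AEN, a gene for an apoptotic nuclease, was at 90.2, 91.6 and 76.9 CPM with DMSO and at 66.3, 103 and 80.3 with SEL120-34A in LNCaP and at 39.3, 41.2 and 52.5 CPM with DMSO and at 41.3, 38.6 and 42.8 with SEL120-34A in 22Rv1. TRIAP1, a gene for an inhibitor of apoptosis, was at 244, 217 and 232 CPM with DMSO and at 172, 219.6 and 308 with SEL120-34A in LNCaP and at 145, 146 and 161 CPM with DMSO and at 121, 180.3 and 145 with SEL120-34A in 22Rv1. These last 2 genes had the smallest changes of the role, between -0.12 and 0.08 over both lines.

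The 4 tested genes of DNA repair and nucleotide supply did not pass in either line, beside 2.77% and 5.7% of all genes called. By DESeq2 and limma-trend none did, but DESeq2 gave no adjusted p for 3 of the 4 in 22Rv1. At an unadjusted p under 0.05 there was 1 higher in LNCaP, RRM2B, and 0 in 22Rv1, beside 7.86% and 11.1% of all genes. RRM2B encodes a p53-inducible subunit of ribonucleotide reductase. It was at 35.2, 49.7 and 40.5 CPM with DMSO and at 46.8, 67.8 and 63.4 with SEL120-34A in LNCaP, a change of 0.60 (95% interval 0.06 to 1.14; adjusted p = 0.294). It stood in 22Rv1 at 15.7, 24.3 and 20.3 CPM with DMSO and at 24.8, 21.5 and 14.3 with SEL120-34A, with no shift of the groups (change 0.01). DDB2 and XPC encode the damage sensors of nucleotide excision repair. DDB2, whose exact p53 element starts at position 6, was at 97.2, 94.2 and 74.1 CPM with DMSO and at 125, 103 and 63.4 with SEL120-34A in LNCaP and at 37.3, 33.7 and 36.97 CPM with DMSO and at 52.4, 25.8 and 31.4 with SEL120-34A in 22Rv1. Its intervals ran from -0.36 to 0.58 and from -0.58 to 0.74. XPC changed by 0.43 in LNCaP and by -0.58 in 22Rv1 (adjusted p = 0.742 and 0.493), and was the single target gene whose treated 22Rv1 libraries all lay below the controls. ASCC3, a helicase gene of alkylation repair, changed by 0.39 and 0.21.

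Of the 6 tested genes of metabolism and redox balance, 1 was higher in LNCaP and 0 in 22Rv1, beside 1.99% and 4.15% of all genes. In 22Rv1, 1 was higher at an unadjusted p under 0.05, beside 11.1%. DESeq2 and limma-trend called 0 there, and DESeq2 gave no adjusted p for 5 of the 6. Their median change was 0.57 in LNCaP and, over the 5 with enough counts, -0.05 in 22Rv1. TP53I3 encodes PIG3, a quinone oxidoreductase-like protein. LNCaP libraries had it at 12.7, 31.4 and 11.2 CPM with DMSO and at 42.9, 59.6 and 38.01 with SEL120-34A, from 8 to 22 counts per library. The groups did not overlap, with a change of 1.52 ± 0.39 (SE; adjusted p = 0.0193), but it did not pass without DMSO replicate 1 (adjusted p = 0.135) or 3 (0.209), SEL120-34A replicate 1 (0.0659) or 2 (0.241), or with DESeq2 (0.143). In 22Rv1 it had only 1, 4 and 6 counts with DMSO and 2, 2 and 1 with SEL120-34A. NADSYN1, a gene for NAD synthetase, was at 33.8, 31.4 and 36.4 CPM with DMSO and at 58.5, 59.6 and 46.5 with SEL120-34A in LNCaP. 22Rv1 libraries had it at 11.8, 3.74 and 11.9 CPM with DMSO and at 22.05, 17.2 and 31.4 with SEL120-34A, apart from the controls in both lines without passing (adjusted p = 0.261 and 0.0714).

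SESN1 encodes a sestrin that restrains mTORC1. It was at 85.9, 83.8 and 105 CPM with DMSO and at 58.5, 111 and 156 with SEL120-34A in LNCaP and at 17.7, 5.62 and 15.5 CPM with DMSO and at 13.8, 8.58 and 14.3 with SEL120-34A in 22Rv1. FDXR, a gene for mitochondrial ferredoxin reductase, was at 46.5, 57.6 and 54.5 CPM with DMSO and at 74.1, 89.4 and 61.2 with SEL120-34A in LNCaP and at 11.8, 20.6 and 13.1 CPM with DMSO and at 16.5, 25.8 and 2.85 with SEL120-34A in 22Rv1. Of this pair, only FDXR in LNCaP had groups that did not overlap, and its change of 0.53 did not pass (adjusted p = 0.374). ABHD4, a lipid hydrolase gene, was at 66.2, 34.03 and 40.5 CPM with DMSO and at 101, 75.9 and 50.7 with SEL120-34A in LNCaP and at 13.7, 16.8 and 11.9 CPM with DMSO and at 16.5, 21.5 and 28.5 with SEL120-34A in 22Rv1. CMBL, a hydrolase gene, was at 69.02, 54.98 and 78.3 CPM with DMSO and at 46.8, 35.2 and 73.9 with SEL120-34A in LNCaP and at 33.4, 16.8 and 25.05 CPM with DMSO and at 27.6, 17.2 and 17.1 with SEL120-34A in 22Rv1. It was the single tested target gene with a negative change in LNCaP, -0.33 (95% interval -0.86 to 0.21; adjusted p = 0.650), and its change in 22Rv1 was also negative, -0.23.

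Among the 4 remaining tested genes, RPS27L was higher in 22Rv1. It encodes a relative of ribosomal protein S27, and whether its counts hold reads from the gene of that protein cannot be told here. In 22Rv1 it was at 98.2, 93.6 and 111 CPM with DMSO and at 223, 309 and 183 with SEL120-34A. The groups were well apart, the change was 1.20 ± 0.18 (SE; adjusted p = 1.81e-05), and it held in all 23 alternatives. In LNCaP it was at 354, 435 and 372 CPM with DMSO and at 421, 472 and 570.2 with SEL120-34A, with overlapping groups and a change of 0.39 (95% interval 0.10 to 0.68; adjusted p = 0.175). ZMAT3 encodes an RNA-binding zinc finger protein and carries an exact p53 element in an intron. It was at 21.1, 10.5 and 13.98 CPM with DMSO and at 31.2, 43.4 and 31.7 with SEL120-34A in LNCaP, with groups apart and a change of 1.17 (95% interval 0.38 to 1.96; adjusted p = 0.113). In 22Rv1 it had 2, 7 and 6 counts with DMSO and 1, 2 and 2 with SEL120-34A. FBXO22, a gene for a ubiquitin ligase subunit, changed by 0.58 in LNCaP and 0.29 in 22Rv1. BLOC1S2, a gene for a subunit of an organelle trafficking complex, was at 22.5, 52.4 and 25.2 CPM with DMSO and at 42.9, 35.2 and 29.6 with SEL120-34A in LNCaP and at 68.7, 43.05 and 62.02 CPM with DMSO and at 85.4, 42.9 and 45.6 with SEL120-34A in 22Rv1, with overlapping groups in both.

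The difference between the responses of the lines was tested directly. GDF15 was the single target gene of the 31 whose response differed, by -1.39 ± 0.34 (SE; adjusted p = 0.0399) for LNCaP minus 22Rv1, beside 0.734% of all genes called and 0.466% called in that direction. Its controls stood at 799 ± 389.7 CPM (SD, n = 3) in LNCaP and 86.1 ± 9.57 in 22Rv1, so the larger rise was in the line with the lower control level. This call was lost in 12 of 22 alternatives, among them DESeq2 (adjusted p = 0.256), limma-trend (0.404), and the fits without LNCaP DMSO replicate 3 (0.221), LNCaP SEL120-34A replicate 1 (0.0872) or 2 (0.0713), 22Rv1 DMSO replicate 1 (0.0792), 2 (0.0551) or 3 (0.120), or 22Rv1 SEL120-34A replicate 2 (0.246). CDKN1A and GADD45A responded by amounts that did not differ detectably between the lines, with differences of 0.17 (95% interval -0.64 to 0.97; adjusted p = 0.917) and -0.08 (95% interval -0.94 to 0.78; adjusted p = 0.972). For RPS27L the difference was -0.81 (95% interval -1.29 to -0.34; adjusted p = 0.106) and for MDM2 0.63 (95% interval -0.53 to 1.79; adjusted p = 0.732). The wide intervals leave room for differences of the size of the changes themselves.

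Without the inhibitor, after 3 days with DMSO, the target genes already differed between the lines. With DMSO, 25 of the 31 differed by edgeR, 20 higher in LNCaP and 5 higher in 22Rv1, beside 49% of all genes, 24% and 25% in each direction. The median difference of the 31 was 1.04, beside -0.03 for all genes. Groups did not overlap for 21 that lay above and 5 that lay below, beside 27.5% and 28.9% of all genes. LNCaP was higher by 3.24 ± 0.25 (SE; adjusted p = 5.23e-14) for GDF15, by 2.78 ± 0.31 (SE; adjusted p = 9.13e-10) for SESN1, by 2.25 ± 0.22 (SE; adjusted p = 3.48e-11) for PHLDA3 and by 2.16 ± 0.25 (SE; adjusted p = 1.72e-09) for CDKN1A. RPS27L followed with 1.92 ± 0.16 (SE; adjusted p = 6.68e-13).

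By role, the excess in LNCaP covered all 6 metabolic genes, from TP53I3 and CMBL, both at 1.46, to SESN1. It covered 7 of the 9 cell death genes, 3 of the 6 arrest and growth genes, 2 of the 4 repair genes, CCNG1 (1.04) and RPS27L. Called lower in LNCaP were 2 of the 9 cell death genes, 2 of the 6 arrest and growth genes and BLOC1S2. Of all genes, 24% were higher and 25% lower. DDB2 was higher by 1.28 ± 0.25 (SE; adjusted p = 3.71e-05) and RRM2B by 1.01 ± 0.30 (SE; adjusted p = 0.00473). Between TP53INP1 at 1.66 and PERP at 0.58 lay GADD45A (1.44), TNFRSF10B (1.10), PMAIP1 (1.07), AEN (0.92) and TRIAP1 (0.62). FDXR, ABHD4 and NADSYN1 were higher by 1.79, 1.80 and 1.82. MDM2 did not differ detectably, at 0.04 (95% interval -0.67 to 0.74; adjusted p = 0.942).

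The 5 genes higher in 22Rv1 include SFN, at 78.4 ± 5.42 CPM (SD, n = 3) there against 1, 0 and 2 counts in the LNCaP libraries (adjusted p = 1.15e-13). The mitochondrial death genes BBC3 and BAX were lower in LNCaP by a log2 difference of -1.93 ± 0.30 (SE; adjusted p = 9.32e-07) and -0.61 ± 0.23 (SE; adjusted p = 0.0287), against the direction of PMAIP1. PLK3 was at -1.06 ± 0.43 (SE; adjusted p = 0.0367) and BLOC1S2 at -0.93 ± 0.29 (SE; adjusted p = 0.00734). In every alternative that tested them, 13 of the 25 kept their call, CDKN1A, GDF15, SFN, BBC3, SESN1, PHLDA3 and RPS27L among them, and 12 lost it in at least 1. BAX was lost in 8 of 22, with a difference of -0.10 at equal depth, and also without LNCaP DMSO replicate 1 (adjusted p = 0.0748) or 3 (0.0933) and without 22Rv1 DMSO replicate 2 (0.0524) or 3 (0.0618). PLK3 was lost without LNCaP DMSO replicate 1 (0.0911) or 2 (0.121) and without 22Rv1 DMSO replicate 1 (0.138) or 2 (0.0738). BLOC1S2 was lost without LNCaP DMSO replicate 1 (0.0708) or 3 (0.0504). Leaving out 1 library also ended the call of TNFRSF10B (0.141 without 22Rv1 DMSO replicate 3), TP53I3 (0.158 without LNCaP DMSO replicate 2, 0.0955 without 22Rv1 DMSO replicate 1) and PMAIP1 (0.146 without LNCaP DMSO replicate 3). At equal depth the calls of RRM2B (difference 0.59, adjusted p = 0.515), TRIAP1 (0.40, 0.202), TP53INP1 (1.10, 0.113), CMBL (1.05, 0.101), AEN (1.04, 0.0601), GADD45A (1.39, 0.0502) and BLOC1S2 (-0.44, 0.579) ended as well.

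**Figure D4:**
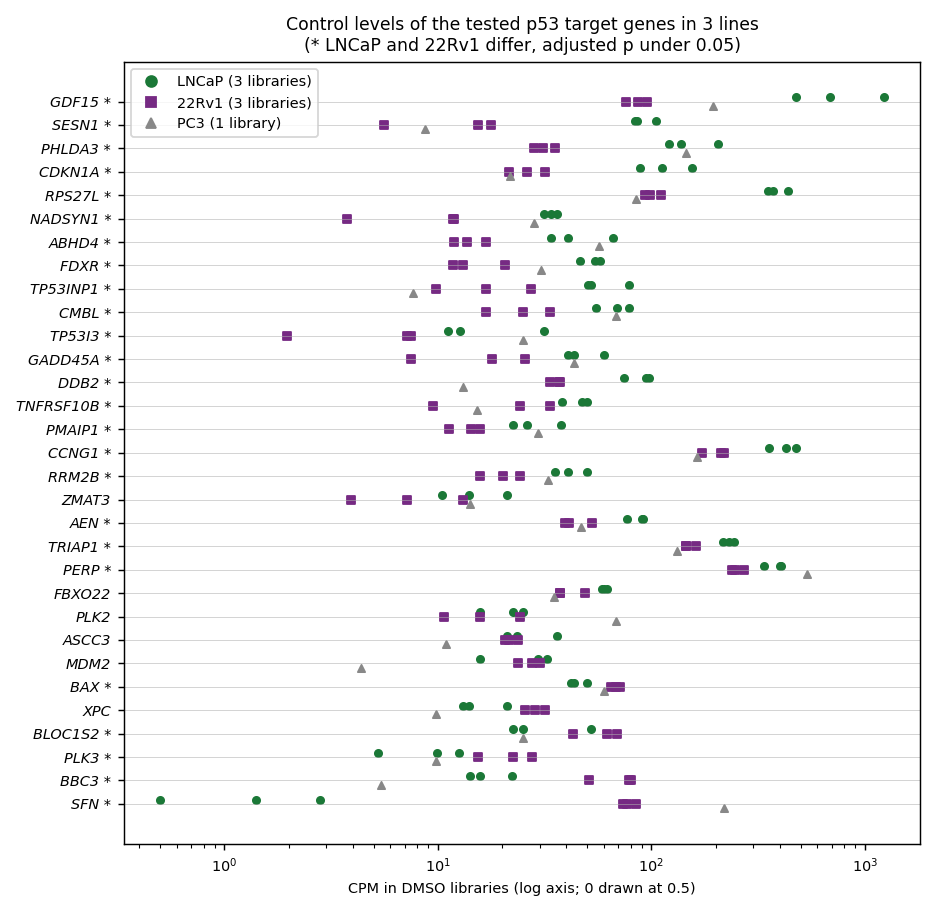
CPM in the DMSO libraries (horizontal log axis, values of 0 drawn at 0.5) of the 31 tested p53 target genes (rows, ordered by the difference between LNCaP and 22Rv1). Green circles are the 3 LNCaP libraries, purple squares the 3 22Rv1 libraries and grey triangles the PC3 library, and a star marks the 25 genes that differed between LNCaP and 22Rv1. Circles lie to the right of squares in the upper rows, from GDF15 down, and to the left in the lowest, SFN.

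PC3, which lacks p53, had 1 library per arm, so its ratios have no replicate check and no test. Of the 42 target genes, 28 had at least 10 counts in 1 of these libraries, 15 of them higher with SEL120-34A, beside 47.9% of 9143 genes, and 13 lower. None was past 2-fold, beside 6.34% of those genes, and the median log2 ratio was 0.08, beside -0.02. CDKN1A had 20 counts with DMSO and 21 with SEL120-34A, a log2 ratio of 0.69 (counting interval -0.20 to 1.72). GADD45A had 40 counts with DMSO and 40 with SEL120-34A, a ratio of 0.66 (counting interval 0.02 to 1.36) after scaling for depth. GDF15 had 179 counts with DMSO and 83 with SEL120-34A, a ratio of -0.41 (counting interval -0.81 to -0.04). The ratio of GDF15 is below 0, whereas the gene was called higher in LNCaP and 22Rv1. RPS27L had 78 counts with DMSO and 27 with SEL120-34A, a ratio of -0.81 (counting interval -1.53 to -0.20), and SFN had 201 counts with DMSO and 115 with SEL120-34A, a ratio of -0.12 (counting interval -0.46 to 0.22). An interval above 0 was also found for TRIAP1, at 0.43 (counting interval 0.05 to 0.83). MDM2 had 4 and 3 counts. PC3 was normalized together with the other lines but was not part of the fit, and whether its response differs from theirs was not tested.

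**Figure D5:**
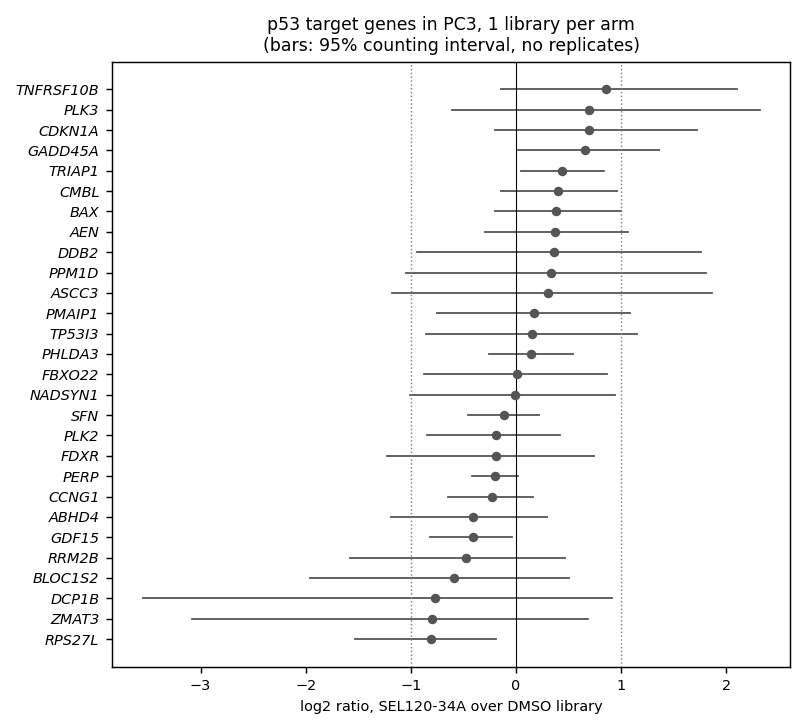
Log2 ratio of SEL120-34A over DMSO in PC3 (horizontal axis) for the 28 p53 target genes with at least 10 counts in 1 of the libraries, ordered by ratio. Bars are 95% counting intervals of the 2 libraries and carry no replicate error, and dotted lines mark 2-fold. All points lie between the dotted lines, from RPS27L at -0.81 to TNFRSF10B at 0.86.

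A list of 23 genes held regulators of p53, and 13 were tested, with a median change of -0.04 in LNCaP and -0.44 in 22Rv1. By edgeR none was called in either line, beside 2.77% and 5.7% of all genes. At an unadjusted p under 0.05, 1 was higher and 1 lower in LNCaP, beside 7.86% and 5.63% of all genes. In 22Rv1, 3 were lower and 0 higher, beside 7.99% and 11.1%. DESeq2 and limma-trend called 0 in both lines, where DESeq2 gave no adjusted p for 6 of the 13 in 22Rv1. MDM4, the partner of MDM2 in holding p53 inactive, changed by -0.04 in LNCaP and -0.73 in 22Rv1 (adjusted p = 0.988 and 0.269).

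Of 26 further p53 targets outside the 42, 14 were tested. The list was written with earlier results of these libraries known, so its counts are not an independent check. By edgeR, 2 of the 14 were higher in LNCaP and 1 in 22Rv1, beside 1.99% and 4.15% of all genes, and none was lower. There were 5 higher in LNCaP, 2 higher in 22Rv1 and 1 lower in each at an unadjusted p under 0.05. Of all genes, 7.86% were higher and 5.63% lower in LNCaP, and 11.1% and 7.99% in 22Rv1. DESeq2 and limma-trend each called 2 higher in LNCaP, 0 higher in 22Rv1 and none lower, where DESeq2 gave no adjusted p for 7 of the 14 in 22Rv1. IGFBP3, a gene for a secreted binding protein of insulin-like growth factors, was at 101, 34.03 and 16.8 CPM with DMSO and at 561, 436 and 365 with SEL120-34A in LNCaP. SAT1, a gene for the enzyme that acetylates spermidine and spermine, was at 78.9, 73.3 and 54.5 CPM with DMSO and at 413, 290.0 and 243 with SEL120-34A. Their groups were far apart in LNCaP, with changes of 3.10 ± 0.26 (SE; adjusted p = 1.35e-11) and 2.20 ± 0.21 (SE; adjusted p = 6.23e-10). In 22Rv1 the changes were -0.17 (95% interval -1.05 to 0.71; adjusted p = 0.886) and 0.23 (95% interval -0.52 to 0.99; adjusted p = 0.797). DRAM1, a gene for a lysosomal membrane protein of autophagy, was called as higher in 22Rv1 on 3, 1 and 1 counts with DMSO and 3, 10 and 5 with SEL120-34A (adjusted p = 0.0150), and not with limma-trend (0.0998) or without DMSO replicate 3 (0.107) or SEL120-34A replicate 2 (0.259).

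Through p21, p53 is known to lower many cell cycle genes. All 20 genes of a list of these were tested, and 19 had a negative change in LNCaP, with a median of -0.58, and 13 in 22Rv1, with a median of -0.32, while 50.1% and 50.3% of all genes had a positive one. By edgeR, 3 fell in LNCaP and 2 in 22Rv1, beside 0.776% and 1.55% of all genes, and none rose. At an unadjusted p under 0.05, 12 and 6 were lower, beside 5.63% and 7.99%, and 0 were higher. DESeq2 called 1 lower in each line, with no adjusted p for 5 of the 20 in 22Rv1, limma-trend called 0 in both, and neither called any as higher. CDC20, the activator of the anaphase-promoting complex, was at 219.7, 228 and 246 CPM with DMSO and at 74.1, 73.2 and 182 with SEL120-34A in LNCaP. It stood in 22Rv1 at 329.8, 313 and 382 CPM with DMSO and at 193, 189 and 225 with SEL120-34A. Treated libraries lay below the controls in both lines, with changes of -0.96 ± 0.20 (SE; adjusted p = 0.00299) and -0.74 ± 0.18 (SE; adjusted p = 0.00966). BIRC5, the gene for survivin, fell by 0.65 and MYBL2, a transcription factor gene of S phase and mitosis, fell by 0.97 on the log2 scale in LNCaP (adjusted p = 0.0229 and 0.0344). PLK1, a mitotic kinase gene, fell by 0.73 in 22Rv1 (adjusted p = 0.0420). Each of these calls was lost in 3 to 9 alternatives. Among them, leaving out LNCaP SEL120-34A replicate 2 ended the LNCaP calls of CDC20 (adjusted p = 0.0915), BIRC5 (0.189) and MYBL2 (0.198), and leaving out 22Rv1 SEL120-34A replicate 2 ended those of CDC20 (0.0653) and PLK1 (0.307) in 22Rv1. The lists of this and the preceding 2 paragraphs were written with earlier results of these libraries known.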

How the data were processed

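The data were 14 BRB-seq libraries. According to the methods of the study, STARsolo was used by the authors to align and count reads on GRCh38.p13 with GENCODE release 43, and the authors deposited the raw counts per gene. Whether molecular identifiers were collapsed is not given in the sources used here. The authors also deposited log2 CPM values, which edgeR's TMM scaling with a prior count of 2 gave back within 4.97e-14 and which served as 1 alternative.

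Counts of the 12 LNCaP and 22Rv1 libraries were fitted in R 4.3.3 with edgeR 4.0.16 (filterByExpr, TMM, glmQLFit and glmQLFTest, 4 group means, 8 residual degrees of freedom), with Benjamini-Hochberg adjustment over 7086 genes and a threshold of 0.05. Groups and replicate numbers came from the labels. PC3 ratios used CPM with a prior count of 2, a minimum of 10 counts and a 2-fold limit. CPM were scaled by TMM over all 14 libraries. A fitted fold was not given where an arm had at most 3 counts in every library, which is 3.27 to 12.9 CPM depending on depth. Intervals of counts cover counting error only. On simulated counts for 6547 genes, 200 genes were changed by 1.5 on the log2 scale in each line. By edgeR, 83.5% of these were recovered for LNCaP, where 6.70% of calls were false, and 78.5% for 22Rv1, where 6.55% were. Every simulated gene had the same spread, and the target genes changed less, by medians of 0.43 and 0.29. The simulation thus does not tell how often a change of a target gene would be found. Replicate libraries of a group differed by more than counting noise (1.43 to 3.02 times the chi-square that counting noise gives).

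Alternatives tried were DESeq2 size factors, no low-count filter, library totals, a block for the replicate number, at least 10 counts in every library, the DESeq2 1.42.0 Wald test, limma-trend (limma 3.58.1), equal depth, PC3 libraries added, each line alone, and each of the 12 libraries left out. Removal of mitochondrial genes was chosen after seeing the data. Elements and coordinates used GENCODE release 44 on GRCh38, where all 42 target genes were found, 41 with the same identifier version. A first search of the 250 bases before and 50 after each start found no element in a gene that rose, and the wider window was chosen after that. No sequence from chromosome 8 is shown.

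The 42 genes and the other lists were chosen with earlier results of these data known. Values in every library are given for each target gene called in any of the 4 comparisons and for CDKN1A and MDM2. From the other lists, genes called in either line and MDM4 are named. Some genes of these lists are not reported here.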

Additional observations from a re-analysis of the deposited data

Results flagged for a closer look

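By edgeR's test of the difference itself, the response to SEL120-34A differed between LNCaP and 22Rv1 for 1 of the 31 tested target genes. It also differed for 2 of 14 tested further p53 targets, a list written with earlier results known, beside 0.734% of all genes. For GDF15 the log2 difference, LNCaP minus 22Rv1, was -1.39 (adjusted p = 0.0399), and this call was lost in 12 of 22 alternatives. For IGFBP3 it was 3.27 (adjusted p = 0.000129), with a rise called in LNCaP and not in 22Rv1, and this difference was lost with limma-trend (0.0666). For SAT1 it was 1.97 (adjusted p = 0.0129), and this call was lost without 22Rv1 DMSO replicate 1 (1.54, adjusted p = 0.123), at equal depth (1.47, 0.504) and with limma-trend (1.86, 0.142).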

How the results depend on the processing

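The number of the 31 target genes called was 5 in LNCaP and 5 in 22Rv1. With at least 10 counts in every library it was 2 in each, of 9 genes left, of which 9 in LNCaP and 7 in 22Rv1 had a positive change. The DESeq2 Wald test called 3 in LNCaP, limma-trend called 0 and 3, and equal depth called 1 in LNCaP. The 1 gene whose response differed between the lines became 0 with library totals, at least 10 counts, DESeq2, limma-trend and equal depth. DESeq2 gave no adjusted p for 23 of the 31 in that comparison. Between the DMSO arms, 25 of the 31 became 8 of the 9 genes left with at least 10 counts. At equal depth 13 were called. In PC3, 0 past 2-fold became 4 without the low-count filter and 8 past 1.5-fold. Leaving out 1 library at a time gave 2 to 5 in LNCaP, 3 to 6 in 22Rv1, 0 to 2 for the difference and 22 to 26 between the DMSO arms. In LNCaP, the change of MDM2 then ran from -0.48 to 0.73 and of MDM4 from -0.38 to 0.19. MDM2 was negative without SEL120-34A replicate 2 (-0.48) and MDM4 positive without DMSO replicate 2 (0.11) or 3 (0.17) or SEL120-34A replicate 3 (0.19). The cause of these shifts was not tested. Same-numbered libraries of the arms correlated by -0.05 to 0.12 and differently numbered ones by -0.16 to 0.07. With 3 libraries per arm, these values cannot tell whether the numbers pair the libraries. With the replicate block the counts of called genes were 5, 5, 1 and 25. The shallow libraries limit the genes with few counts: MDM2 had 3 to 23.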
